A study of Danio rerio with 67 samples.

Results

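Among 32 cells carrying an olig2:eGFP transgene that were sorted from the lesioned adult zebrafish spinal cord, 15 had less than 10000 CPM (reads of a gene scaled to the same total of gene reads in every cell) of plp1b, a myelin proteolipid gene, and 17 had more. Those 15 cells were divided by 2 genes: olig1, a transcription factor of the oligodendrocyte lineage, and GRIN1, which encodes the obligatory subunit of NMDA-type glutamate receptors (the zebrafish gene ENSDARG00000027828). The 7 cells with at least 5 reads of either gene are called positive cells here, and the 8 cells with fewer than 5 reads of both are called negative cells. plp1b, olig1 and GRIN1 chose the cells from these same data and are not results. The highest plp1b level inside the limit was 614 CPM and the lowest outside it was 19557 CPM. Every negative cell had 0 reads of both dividing genes, whereas the positive cells had 0 to 1044 reads of olig1 and 0 to 1283 reads of GRIN1.

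The lesion was a transection of the cord, cells were taken 7 days later from tissue just rostral to it, and sham-operated fish kept an intact cord. All fish were adult Tg(olig2:eGFP) animals, in which regulatory sequence of olig2 drives green fluorescent protein, so the sort collects any cell in which that transgene is active. Each group came from 9 pooled cords and no fish is named for a cell, so the 15 cells share 1 pool, both sides together are 1 sample, and no test between them was possible. The same limits applied to the 35 sham cells left 5 positive cells and 1 negative cell, which the division of lesion cells did not use.

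Oligodendrocyte progenitor cells (OPCs) are dividing glia of the adult cord that carry glutamate receptors and chondroitin sulfate proteoglycans and can become myelinating oligodendrocytes. In zebrafish the olig2 domain of the cord also holds progenitors lining the central canal, known as ependymo-radial glia, which can give rise to motor neurons after a lesion. Notch signalling, in which a Delta or Jagged ligand on one cell activates a Notch receptor on its neighbour and thereby genes of the hes and her families, is known to keep such progenitors from becoming neurons. Symbols are printed as a gene name table gives them, and many zebrafish genes there carry the human spelling.

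The markers supplied for these cells did not all go with olig1. bcan, the proteoglycan brevican (chromosome 16, 29375522 to 29400049 on GRCz10), was detected, meaning at least 5 reads, in 7 of 7 positive and 6 of 8 negative cells. Its level was 1159 CPM in the lowest, 2257 CPM in the median and 8853 CPM in the highest positive cell, against 0, 282 and 1585 CPM in the negative cells. Only lesion cell 9 of the negative cells lay within the range of the positive ones, and lesion cells 3 and 15 had no read. cspg5a, another proteoglycan, was detected in 6 of 7 and 3 of 8 cells, at 326 and 35.6 CPM of the summed reads. hapln1a, a link protein of the extracellular matrix (chromosome 5, 45890469 to 45905545), went the other way and was detected in 0 of 7 positive and 7 of 8 negative cells. PDGFRA, a receptor that marks OPCs in mammals, had 0 reads in all 15 cells and in all 6 sham cells under the plp1b limit. It therefore does not tell the sides apart. Of 18 measured genes on a list of OPC markers, 4 were at least 4-fold higher in positive cells and 5 in negative cells, where the shares over all 5040 measured genes were 15% and 31.2%. bcan and cspg5a thus fit the positive cells, hapln1a does not, and the sides are called by their rule only.

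Library totals were alike on both sides, at 283066 to 511253 gene reads in positive and 280129 to 553819 in negative cells, but the number of genes was not. Positive cells had reads of 1527 to 4767 genes, with a median of 2644, and negative cells of 2916 to 5140, with a median of 4181. Lesion cells 7, 10 and 16, all positive, had under 2500 genes. The part of this gap in the levels below was not tested, and results are also given without those 3 cells where they move.

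Lesion cells 12 and 13, both negative, shared content. All 1118 genes that reached 200 CPM in lesion cell 13 had at least 1 read in lesion cell 12, and the median level there was 14.6% of that in lesion cell 13. Among the 210 ordered pairs of the 15 cells the median share of genes with a read was 56.2% and the next highest was 78.3%. The correlation of log2 CPM between both cells was 0.648, a description over genes of 2 libraries, and the next highest between any 2 of the 15 cells was 0.418. A low value in lesion cell 12 for a gene that is high in lesion cell 13 is therefore no sign of a second cell with that gene. Several counts below are also given without lesion cell 12. Lesion cell 32, a plp1b-high cell, had a read of 94.5% of the same 1118 genes, at a median of 5.36% of the level in lesion cell 13. Lesion cell 2 had a read of 94.0% of the genes abundant in sham cell 20, a plp1b-high cell. Pairs outside the 15 cells also reached such shares, such as 96.6% in lesion cell 17 for sham cell 25. Sham cell 32 had a read of 99.2% of those abundant in sham cell 33, at a median of 3.55% of the level there.

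**Figure D1:**
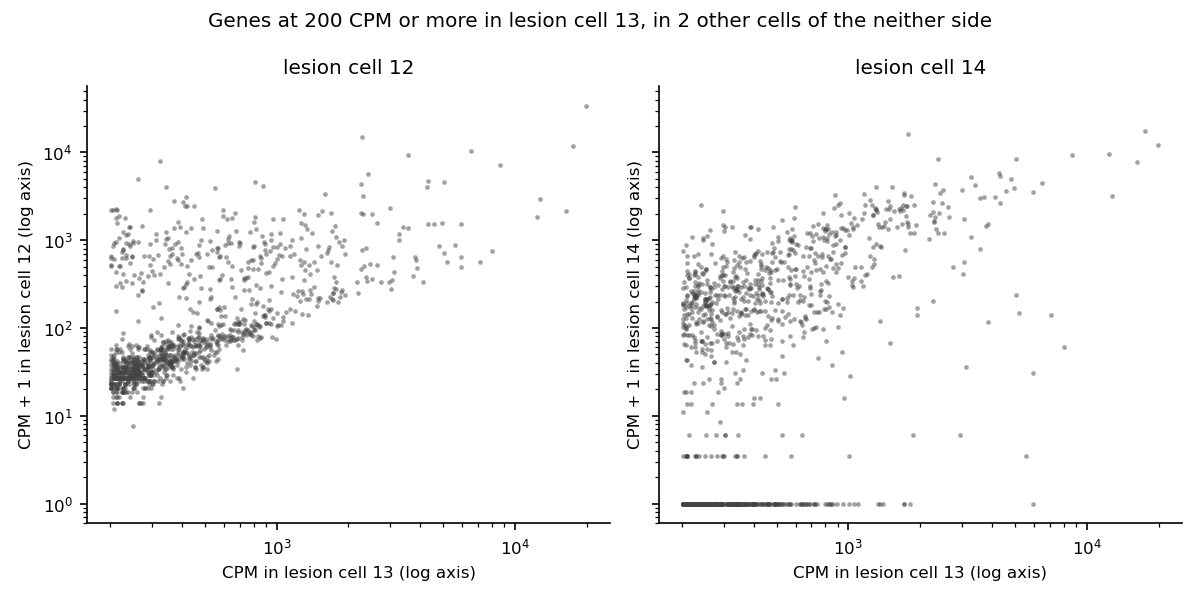
Each point is a gene with at least 200 CPM in lesion cell 13; the x axis gives its CPM there and the y axis its CPM plus 1 in lesion cell 12 (left) or lesion cell 14 (right), all on log axes. In lesion cell 12 none of the 1118 genes is at 0 and most lie along a line at a fixed share of the level in lesion cell 13, while in lesion cell 14 many of the same genes are at 0.

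Of 5040 genes measured (at least 10 CPM over the 15 cells and detected in at least 3 of them), 757 or 15% were at least 4-fold higher in the summed reads of the positive cells, and 1573 or 31.2% at least 4-fold higher in the negative cells. Ratios here are log2 of positive over negative CPM with 1 CPM added to each, and the median over all measured genes was -0.50. Without lesion cell 12 the counts were 736 and 1309 of 4648 genes. These shares are the background against which each gene list below is read. A gene with 0 reads on 1 side passed the filter through the other side alone and had to be at least 4-fold higher there. The background shares include such genes, and their number is given for the lists with large shares. Wherever whole cells are left out below, the filter was applied again to the cells kept, so a list can hold fewer genes.

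Single cells overlapped for nearly all genes. In 5 genes (0.0992%) every positive cell lay above every negative cell, and in 12 genes (0.238%) every negative cell lay above every positive cell. The 5 were CTNNB1, the beta-catenin of cell adhesion and Wnt signalling, the annexin anxa13, VAT1, zgc:65894 and the EEF1A1 gene ENSDARG00000039502, an elongation factor copy. CTNNB1 ranged from 755 to 3581 CPM in positive cells and from 0 to 735 CPM in negative cells. The EEF1A1 gene ranged from 531 to 4759 CPM and from 0 to 342 CPM.

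The 12 genes in the other direction were HSP90AB1, EEF1G, PELI1, MANF, PPP2CA, RND3, BTG1, CDKN1B, RAB40B, PIK3R3, si:dkey-42i9.4 and ENSDARG00000103982. BTG1, an antiproliferative factor, stood at 212 to 1984 CPM in negative cells and at 0 to 21.4 CPM in positive cells. CDKN1B, an inhibitor of cyclin-dependent kinases, stood at 19.3 to 921 CPM and at 0 to 2.27 CPM. RAB40B and PIK3R3, a regulatory subunit of PI3-kinase, had 0 reads in the 7 positive cells. PELI1, PPP2CA, RND3 and CDKN1B are symbols that several zebrafish genes share, and the values are those of ENSDARG00000044083, ENSDARG00000053404, ENSDARG00000076799 and ENSDARG00000054271. Without lesion cell 12 the counts were 5 and 16. These genes, other than PIK3R3 and HSP90AB1, were named after their values were seen. In sham cells they did not all keep this direction. BTG1 stood at 0 to 754 CPM in the 5 positive sham cells and at 7.56 CPM in the negative one. RAB40B stood at 0 to 249 and 0 CPM, and HSP90AB1 at 2533 to 7346 and 2395 CPM. MANF reached 1390 CPM in a positive sham cell and had 0 in the negative one. EEF1G, PPP2CA and CDKN1B kept their direction. They had 1823, 1511 and 326 CPM in the negative sham cell and up to 807, 383 and 181 CPM in positive ones.

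**Figure D2:**
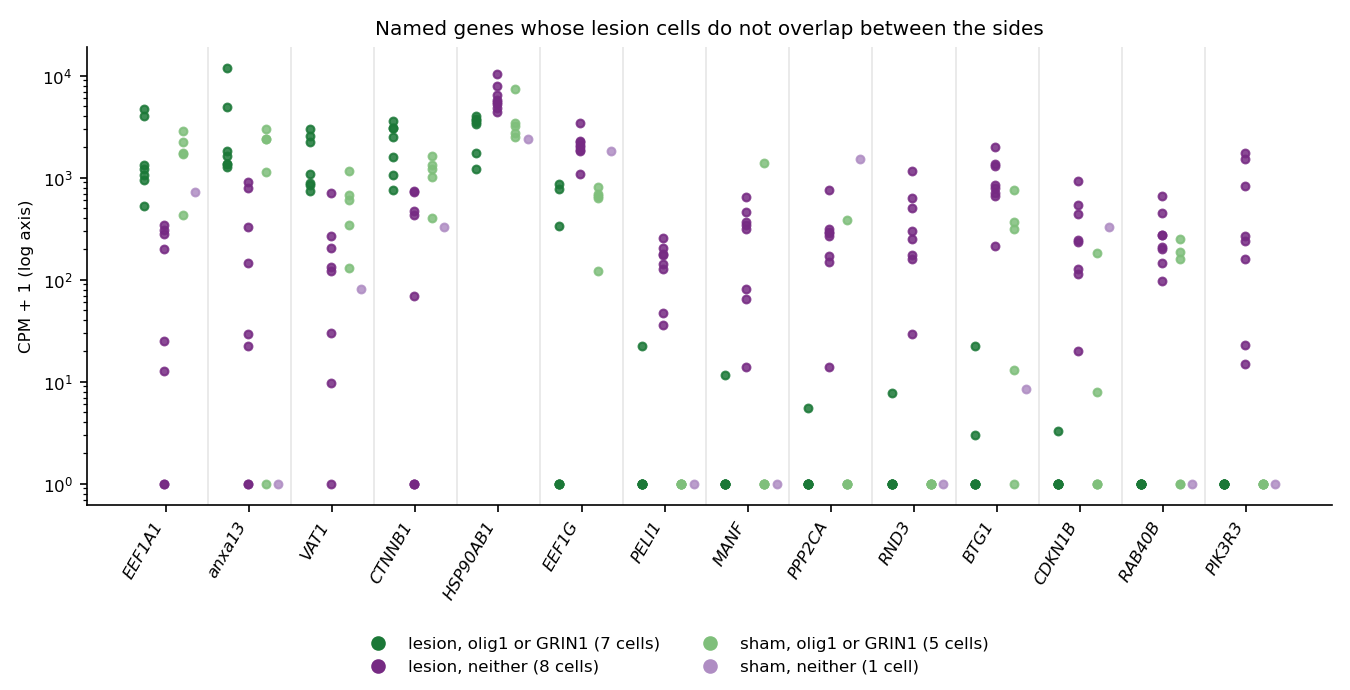
The y axis gives CPM plus 1 on a log axis for 14 of the 17 genes without overlap between lesion sides (3 genes with clone names or no name are left out), and each point is 1 cell. In the first 4 genes the 7 positive lesion cells lie above all 8 negative ones, in the other 10 below, and the sham cells, which did not choose the genes, are shown beside them.

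Glutamate receptor genes were the list furthest toward the positive cells. Of 8 measured receptors 5 were at least 4-fold higher there and 0 in the negative cells, with a median ratio of 6.90. Over fewer receptors, the median was 3.82 without the 3 cells under 2500 genes and 3.22 without lesion cell 10. The counts were 5 and 1 without lesion cell 12. Of the 8 measured receptors 3 had 0 reads in negative cells. GRIA2 ENSDARG00000052765 encodes an AMPA receptor subunit (chromosome 14, 35408071 to 35473299) and shares its symbol with a second zebrafish gene. It had 0 CPM in the lowest, 1035 CPM in the median and 4760 CPM in the highest positive cell and 0 reads in every negative cell. In summed reads that was 1673 CPM (exact 95% Poisson interval 1627 to 1719.7) against 0, at least 1756-fold higher when the negative side is set at 3 reads. All such intervals and bounds cover counting error only. After thinning every cell to 301650 reads it was detected in 4 of 6 positive and 0 of 6 negative cells. The second copy, ENSDARG00000070173, was detected in lesion cells 5, 6 and 10 alone, at 990.5, 343 and 1632 CPM. GRM4, a metabotropic receptor, reached 2226 CPM in lesion cell 10, 251 CPM in lesion cell 11 and 125 CPM in lesion cell 2. Without lesion cell 10, GRM4 and the second GRIA2 copy failed the filter. The medians of 3.82 and 3.22 therefore do not cover the same genes as 6.90. The ratios of both genes themselves stayed at 5.65 or more with any single cell left out. GRIA1 ENSDARG00000021352 stood at 227 CPM in positive and 1.59 CPM in negative cells. Lesion cell 7, the positive cell chosen by olig1 without GRIN1, had none of the listed receptors detected.

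SPOCK3, SEMA5A and CXCL12 stood higher in the positive cells, while the lists that hold them went both ways. Of 13 measured genes for proteoglycans, link proteins and matrix, 6 were at least 4-fold higher in positive and 3 in negative cells. Without lesion cell 12 these were 5 and 4 of 12. The median ratio of 1.08 was -0.27 after thinning and -0.35 without the highest cell of each side. SPOCK3, a testican proteoglycan, was detected in 6 of 7 positive and 1 of 8 negative cells, at 1418 and 27.6 CPM. SEMA5A, a semaphorin of axon guidance (chromosome 24, 16249108 to 16562520), ranged from 0 to 8348 CPM in positive cells with a median of 3561, and among negative cells only lesion cell 4 had it, at 881 CPM. CXCL12, the chemokine that guides migrating cells, was detected in 7 of 7 positive cells, from 186 to 1946 CPM, and in 1 of 8 negative cells, lesion cell 14, at 338 CPM. SEMA5A was the exception of its list: of 19 measured guidance genes 1 was at least 4-fold higher in positive cells and 12 in negative cells, with a median of -4.94, or -1.72 without lesion cells 3, 8 and 15 and -2.92 without lesion cell 3 alone. These counts were 1 and 8 of 15 without lesion cell 12. Those 12 included ROBO3, a receptor of axons at the midline, which was detected in 6 of 8 negative cells at 224 CPM of the summed reads and in 0 of 7 positive cells. Of the 19 guidance genes 8 had 0 reads in positive cells.

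Neuron genes went both ways. Of 16 measured neuron genes 5 were at least 4-fold higher there and 3 in negative cells, with a median ratio of 1.06. SNAP25 ENSDARG00000020609, a protein of vesicle fusion, was detected in 7 of 7 positive cells, from 824 to 1745 CPM, and in 4 of 8 negative cells, up to 905 CPM in lesion cell 8. The beta-tubulin tubb5 reached 9857, 7751 and 6797 CPM in the negative lesion cells 3, 8 and 15 and 6026 CPM in the positive lesion cell 7.

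The rule for names, the 12 largest ratios in each direction among 347 and 930 eligible genes, gave in the positive cells GRIA2, PTPRN2, QPCT, isg15, SCHIP1, TUBB2B, FSTL5, atp1a3a, gpr137bb, wscd1b, ESD and DESI1. PTPRN2, a protein of secretory vesicles, had 0 to 2050 CPM in positive cells with a median of 534, and 0 reads in negative cells. atp1a3a, a sodium pump subunit, and FSTL5 were each detected in 5 of 7 positive cells and 0 of 8 negative cells. ESD and DESI1 were each detected in 6 of 7. Of these 12 genes 8 had 0 reads on the negative side, and the other 4 had 0.317 to 1.90 CPM there.

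**Figure D3:**
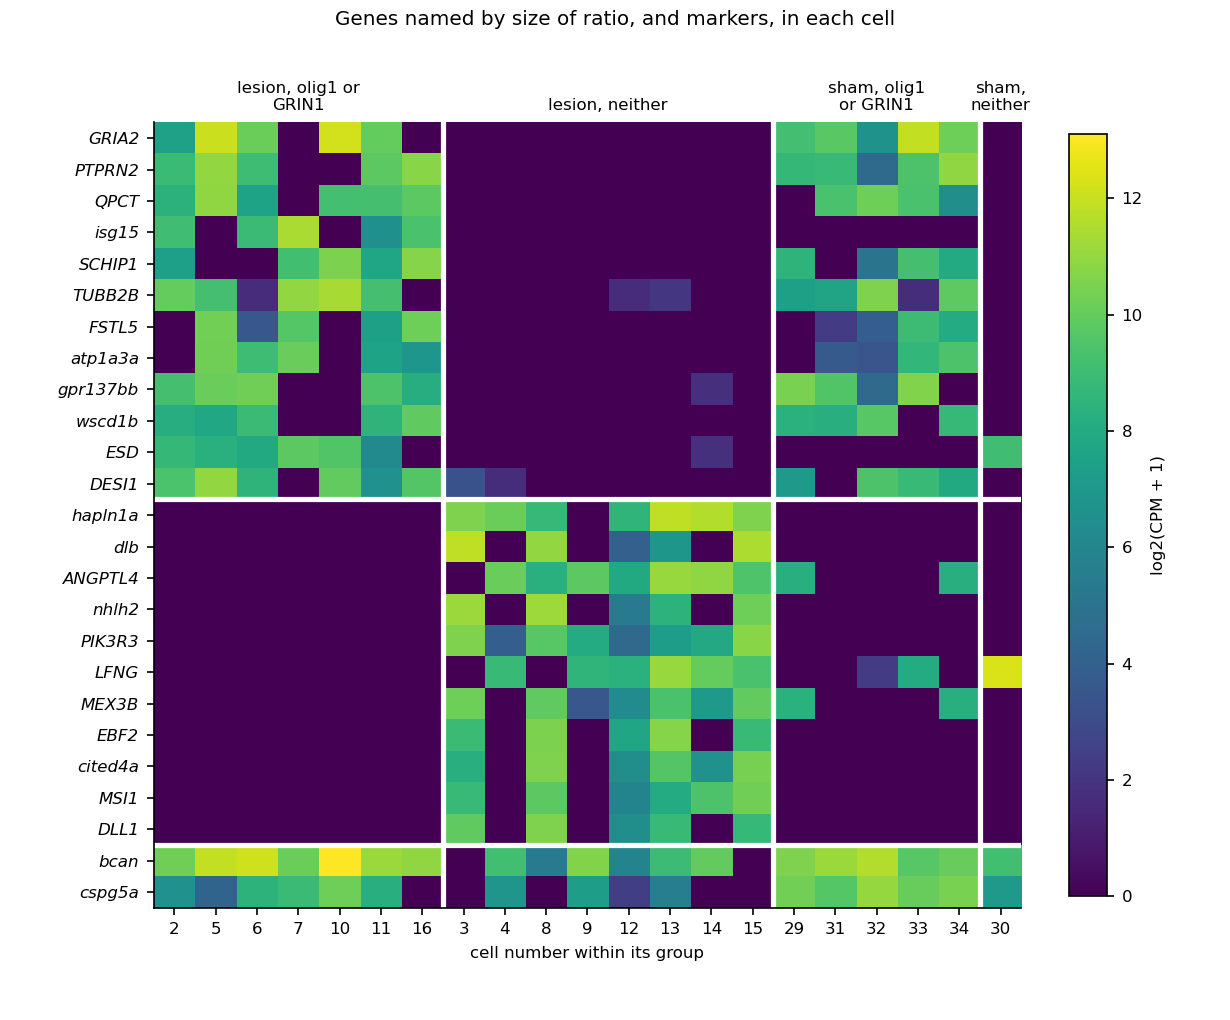
Rows are the 12 and 11 genes named in the positive and negative direction and the markers bcan and cspg5a, columns are the 15 lesion and 6 sham cells, and colour gives log2(CPM + 1). The upper 12 genes are near 0 in all 8 negative lesion cells, isg15 and ESD are also at 0 in the 5 positive sham cells, and the next 11 rows are at 0 in all 7 positive lesion cells.

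isg15 and ifi27.1 are genes that interferon is known to induce, and isg15 encodes a ubiquitin-like modifier. isg15 was detected in 5 of 7 positive cells, at 549 CPM in lesion cell 2, 489 in cell 6, 2841 in cell 7, 95.4 in cell 11 and 659 in cell 16, and had 0 reads in all 8 negative cells. ifi27.1 was detected in 5 of 7 positive cells and 1 of 8 negative cells, and 8814 CPM in lesion cell 7 was its highest value. Of 12 measured antigen presentation and interferon genes, 2 stood 4-fold or more higher in positive and 3 in negative cells, close to the background in the first direction. Without lesion cell 12 these were 2 and 1 of 10, and the median ratio moved from -0.30 to 0.49. The MHC class I genes and b2m genes of that list, whose near-identical copies make single values uncertain, overlapped between the sides: mhc1zba was detected in 7 of 7 positive and 7 of 8 negative cells, at 1040.2 and 1589 CPM of the summed reads.

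In the negative cells the largest ratios included those of hapln1a, dlb, ANGPTL4, nhlh2, PIK3R3, LFNG, MEX3B, EBF2, cited4a, MSI1 and DLL1, each with 0 reads in the 7 positive cells. hapln1a stood at 1520, 1129, 434, 388, 3723, 3111 and 1540 CPM in lesion cells 3, 4, 8, 12, 13, 14 and 15 and at 0 in lesion cell 9. In summed reads that was 1488 CPM (1446 to 1531), at least 1482-fold higher when the positive side is set at 3 reads. After thinning it was detected in 6 of 6 negative and 0 of 6 positive cells. ANGPTL4, a secreted factor of lipid metabolism, was likewise detected in 7 of 8 cells and lacking only in lesion cell 3. MSI1, an RNA-binding protein of neural progenitors, was detected in 6 of 8 cells.

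Notch ligands and their modifiers were at least 4-fold higher in the negative cells in 6 of 7 measured genes, against a background of 31.2%. Their median ratio was -6.64, or -3.77 without lesion cells 3, 8 and 15. Of these 7 genes 3 had 0 reads in positive cells. dlb, a Delta ligand (chromosome 5, 36093706 to 36101607), reached 3674 CPM in lesion cell 3, 2047 in cell 8 and 2916 in cell 15, 122 in cell 13 and 15.3 in cell 12, and 0 in cells 4, 9 and 14. DLL1 ENSDARG00000010791, another Delta ligand, was detected in the same 5 cells, up to 1506 CPM in lesion cell 8. LFNG, a fringe enzyme that modifies Notch, had another pattern, with 2180 CPM in lesion cell 13, 1027 in cell 14 and 0 in cells 3 and 8. The Notch receptor NOTCH1 ENSDARG00000103554 differed less, at 106 CPM in positive and 158 CPM in negative cells, and 3 of 8 measured receptors and relay genes were at least 4-fold higher in negative cells.

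Of 14 measured hes, her and other Notch-related factors 12 were at least 4-fold higher in negative cells, or 7 of 9 without lesion cell 12, but few cells made up that count. her4.1 stood at 4103 CPM in lesion cell 13, 3106 in cell 14, 332 in cell 12 and 72.2 in cell 15, and at 0 in the other 4 negative cells. The summed level of all 26 listed genes was 40833 CPM in lesion cell 13, 5290 in cell 14 and 4485 in cell 12, against 3.57 to 1047 CPM in the other 5 negative cells and 0 to 1969 CPM in positive cells. HES6, a family member not known as a target of Notch, made 1029 CPM of that sum in lesion cell 8 and 387 CPM in the positive lesion cell 16. her12 followed the same cells at 593, 3851 and 117 CPM in lesion cells 12, 13 and 14. The her4 and her15 genes are near-identical neighbours whose reads the counting may have lost or split, so single members are uncertain. The median ratio of the list was -5.86, and 0.28 in plate rows B to E, which leave out lesion cells 5, 8, 13, 15 and 16 together. In those rows her4.1 was detected only in lesion cells 12 and 14. Such genes failed the filter there, so the value of 0.28 does not cover the same genes. With any single cell left out the list median stayed between -7.70 and -5.40. Of the 14 measured genes 9 had 0 reads in positive cells.

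Neurogenic transcription factors were at least 4-fold higher in negative cells in 15 of 18 measured genes (11 of 13 without lesion cell 12), with a median of -6.07, and motor neuron genes in 7 of 8, with a median of -7.40. With genes at 0 on a side set to 3 reads these medians were -6.04 and -7.38. Genes with 0 reads in positive cells numbered 9 of 18 and 5 of 8. nhlh2, a basic helix-loop-helix factor of young neurons, had 2219 CPM in lesion cell 3, 2304 in cell 8, 1189 in cell 15 and 352 in cell 13. EBF3 and INSM1 ENSDARG00000091756, both factors of neuronal differentiation, were detected only in lesion cells 3, 8 and 15 of the 15 cells. ISL1, a homeodomain factor of motor neurons (chromosome 5, 40128460 to 40133892), stood at 1130, 1453 and 1273 CPM in those 3 cells, and SLC18A3, the transporter that loads acetylcholine into vesicles, at 979, 608 and 1297 CPM. MNX1 and LHX4, further motor neuron factors, were detected in the same 3 cells and no other. Without these 3 cells, which the isl1 and mnx1 reads pick, the median was -2.19 for the neurogenic factors and -3.07 for the motor neuron genes. The motor neuron median was -3.28, -3.20 and -2.37 when lesion cell 3, 8 or 15 alone was left out. Genes detected only in lesion cells 3, 8 and 15, such as ISL1, then failed the filter and left these medians. The ratio of ISL1 itself stayed between -8.98 and -8.12 with any single cell left out. Without lesion cells 3, 8 and 15 together ISL1 had no read on the negative side.

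**Figure D4:**
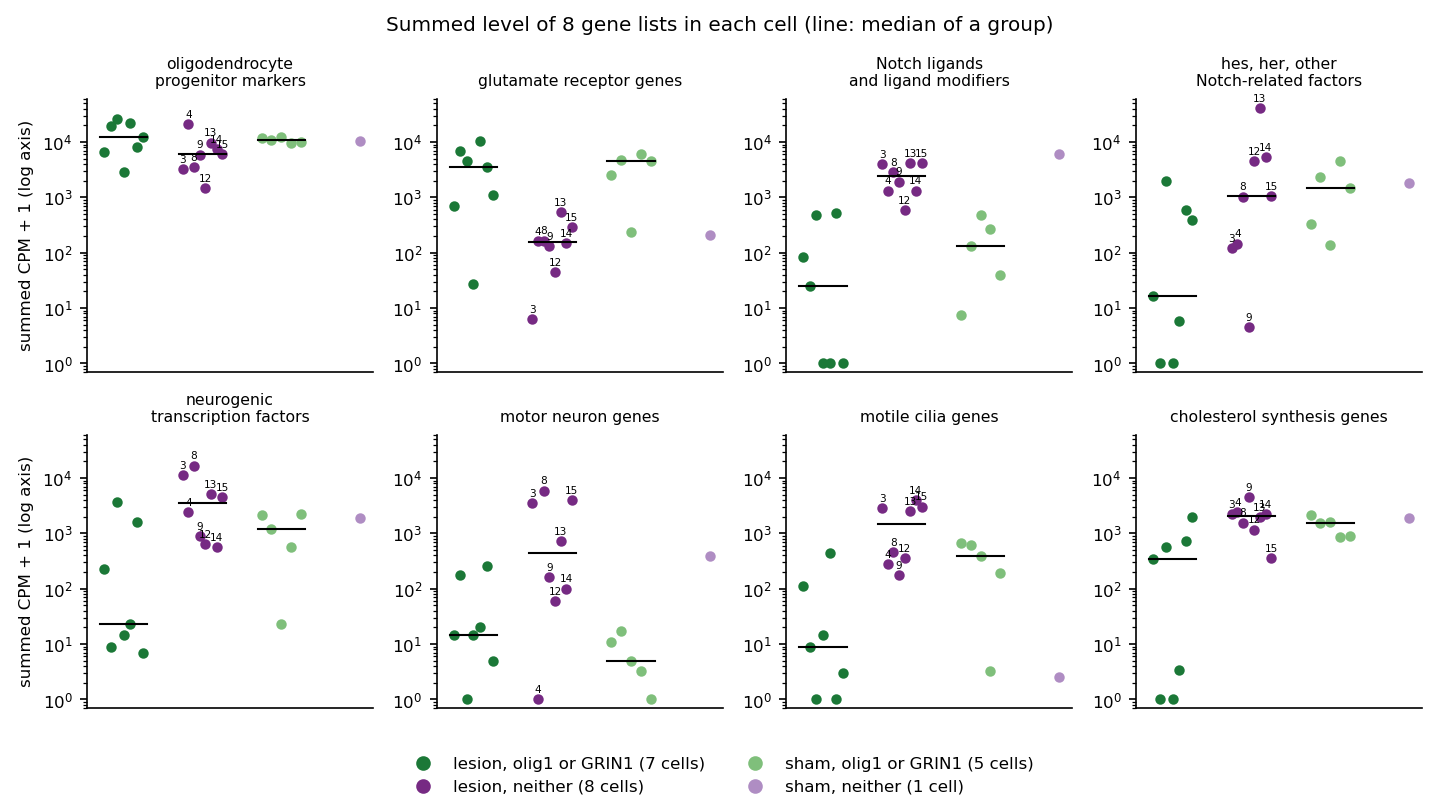
Each panel gives, on a log axis, the summed CPM plus 1 of 1 gene list in every cell, with a black line at the median of a group and lesion cell numbers beside the 8 negative cells. Motor neuron genes are high in lesion cells 3, 8 and 15, and glutamate receptor genes in 6 of the 7 positive cells. The hes and her genes are high in lesion cells 13 and 14, and also in lesion cell 12, which shared content with lesion cell 13.

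The remaining negative cells, lesion cells 4 and 9, were closest to each other, with a correlation of 0.366 over genes. They were the only 2 of the 15 cells in which GPR17, a receptor of oligodendrocyte precursors on the way to differentiation, was detected, at 900 and 157 CPM. Both had SOX10, a factor of the whole oligodendrocyte lineage, at 888 and 839 CPM, within the 0 to 1866 CPM of the positive cells. Lesion cell 4 had the highest OLIG2 of all 15 cells, 14220 CPM, and detected 15 of 32 listed OPC genes, and lesion cell 9 detected 13. In lesion cells 3, 8 and 15 that number was 5 or 6, and in lesion cells 12, 13 and 14 it was 7, 9 and 10. In the positive lesion cells 2, 5, 6, 7, 10, 11 and 16 it was 9, 6, 13, 5, 6, 17 and 4. The cells also differed in the number of genes with a read, and its part in these numbers was not tested. Lesion cells 4 and 9 had 0 reads of dlb and nhlh2. Without both cells 794 genes were at least 4-fold higher in positive and 1262 in negative cells, and the median ratio of the OPC list moved from 0.16 to 1.65. The cells were grouped here after their values were seen, and these values are a description.

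Radial glia genes were likewise divided among the negative cells. GFAP, an intermediate filament of astroglia, was detected in lesion cells 14, 13 and 12, at 2395, 595 and 111 CPM. VIM ENSDARG00000010008, vimentin, was detected in 7 of 8 negative cells, up to 6638 CPM in lesion cell 15, and in 2 of 7 positive cells. FABP7 ENSDARG00000007697, a fatty acid carrier of radial glia, stood at 1948 CPM or more in every positive cell, with a median of 6691 CPM. In negative cells FABP7 ran from 0 to 16088 CPM, with a median of 1658 CPM. SLC1A2 ENSDARG00000102453, a glutamate transporter, was detected in 7 of 7 positive and 2 of 8 negative cells. Of 19 measured genes of the list, 2 were at least 4-fold higher in positive and 9 in negative cells. Without lesion cell 12 these were 0 and 7 of 16.

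Among lists with at least 5 measured genes, motile cilia genes had the highest share toward the negative cells, 12 of 13, with a median of -5.98. Of these 13 genes 10 had 0 reads in positive cells, so they passed the filter through the negative cells alone and had to fall on that side. FOXJ1, the regulator of motile cilia, was detected in lesion cells 3, 12, 13, 14 and 15, at 432, 131, 1059, 366 and 1169 CPM, and had 0 reads in all positive cells. Lesion cell 14 detected 21 of 40 listed cilia genes, lesion cells 3 and 13 detected 11 each, and no positive cell detected more than 1. Without lesion cell 12 the count was 9 of 10.

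Cholesterol synthesis genes were at least 4-fold higher in negative cells in 10 of 13 measured genes, with a median of -5.92, or -2.90 without lesion cells 4 and 9 and -3.86 without lesion cell 9 alone. Of these 13 genes 7 had 0 reads in positive cells. FDPS, an enzyme of the isoprenoid branch point, was detected in 7 of 8 negative cells, up to 421 CPM, and had 0 reads in positive cells. The summed level of the 29 listed genes ran from 354 to 4491 CPM in negative cells and from 0 to 1938 CPM in positive cells. ACAT2 was the exception of the list, at 362 and 56.5 CPM, and 1891 CPM in lesion cell 16 made most of that. The sham cells did not show this division. Their summed level of the list was 858 to 2131 CPM in the 5 positive cells and 1909 CPM in the negative cell. FDPS reached 350 CPM in the positive sham cells and stood at 499 CPM in the negative one.

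Of 16 measured growth factor and chemokine genes 2 were at least 4-fold higher in positive and 7 in negative cells, with a median of -1.09. The midkine genes went in opposite directions. MDK ENSDARG00000020708, a midkine gene on chromosome 25, had 521 CPM in positive and 132 CPM in negative cells, whereas MDK ENSDARG00000036036 on chromosome 7 had 0 reads in positive cells and 600 CPM in negative cells, most of it in lesion cell 14 at 3290 CPM. fgfr4, a fibroblast growth factor receptor, was detected in 5 of 8 negative and 0 of 7 positive cells.

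**Figure D5:**
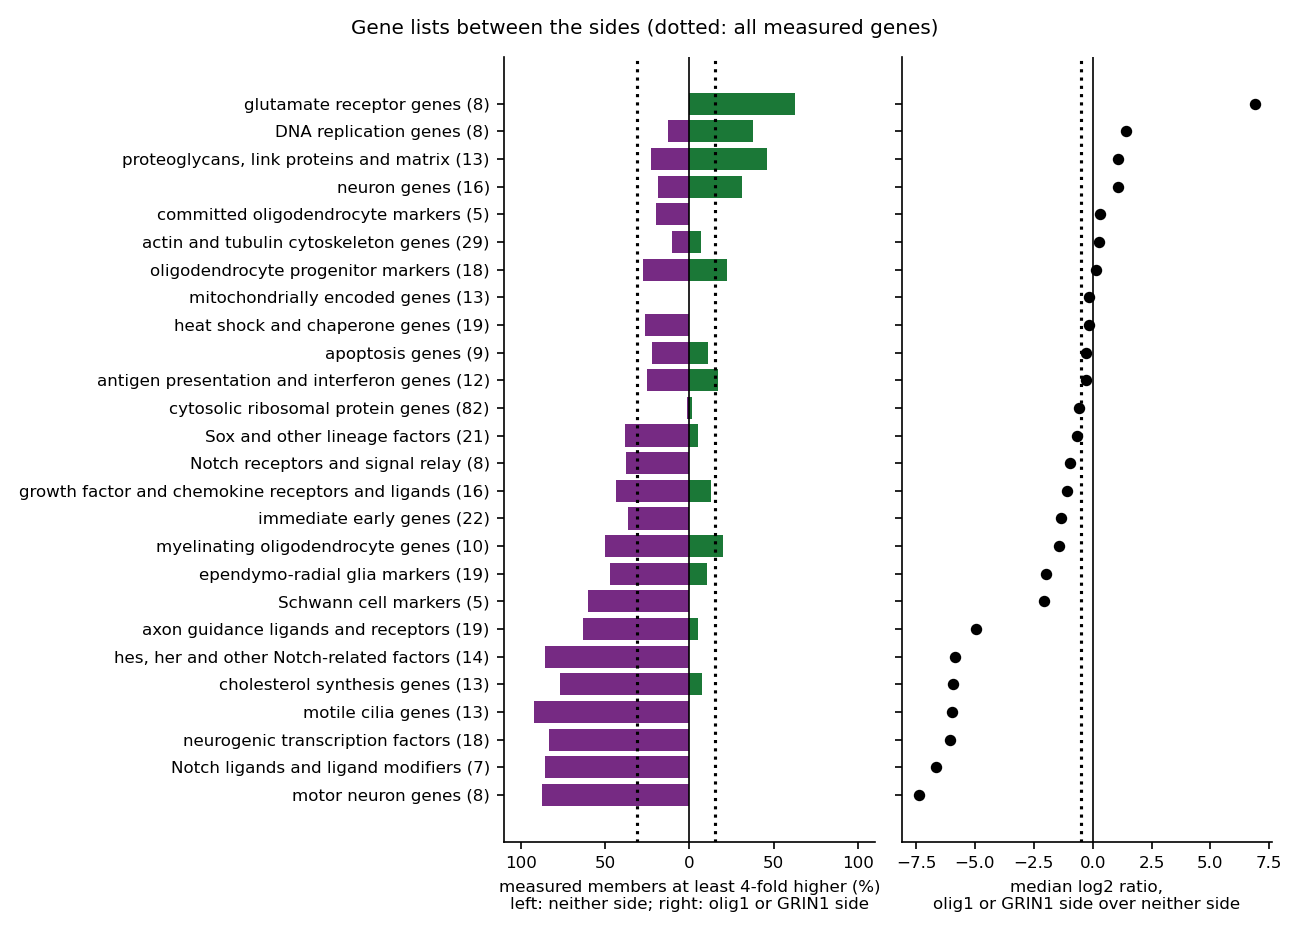
For each gene list with at least 5 measured genes (their number in brackets) the left panel gives the percentage of genes at least 4-fold higher in negative cells (to the left) or positive cells (to the right), and the right panel the median log2 ratio of positive over negative cells. Dotted lines mark all measured genes, at 31.2% and 15% and at -0.50. By median, glutamate receptors lie furthest to the right, and motor neuron genes, Notch ligands and modifiers, neurogenic factors and motile cilia genes furthest to the left.

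Several lists stood near the background or showed small ratios. Of 82 measured ribosomal protein genes 1 was at least 4-fold higher on each side, the median was -0.58, and ribosomal genes took 1.26% to 15.9% of reads in positive and 5.58% to 12.5% in negative cells. Mitochondrially encoded genes had a median of -0.15. Of 22 immediate early genes 0 and 8 were at least 4-fold higher in positive and negative cells, and of 19 heat shock and chaperone genes 0 and 5. Without lesion cell 12 these were 0 and 7 of 22, and 0 and 4 of 18. JUN ran from 4.67 to 6191 CPM in negative cells and was detected in 3 of 7 positive cells. HSPA5, a chaperone of the endoplasmic reticulum, was detected in 8 of 8 negative cells, from 1006 to 6515 CPM, and in 4 of 7 positive cells. Of 10 measured genes of myelinating oligodendrocytes 2 and 5 were at least 4-fold higher, or 1 and 4 without lesion cell 12. mbpa, a myelin basic protein gene, had 48.2 and 411 CPM in positive and negative cells and 21750 CPM in the 17 plp1b-high cells, which a myelin gene chose. cnp of the same list had 377 and 641 CPM against 10.8 CPM there.

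Lists of other cell types the sort could hold were detected to different extents. Lesion cell 4 detected 7 of 14 listed Schwann cell markers, and 3 of 7 positive and 5 of 8 negative cells detected at least 3. Of the 5 measured, 0 were at least 4-fold higher in positive and 3 in negative cells. Their median was -2.07, or -1.22 without lesion cell 3. Of 14 listed skeletal muscle markers at most 3 were detected in a positive cell and 2 in a negative cell. The 4 lists of neutrophil, lymphocyte, endothelial and erythrocyte genes had 0 genes that passed the filter, which asks for detection in 3 cells. Of the neutrophil genes nccrp1 was detected in lesion cell 7 alone, at 710.2 CPM. Of 33 listed microglia genes 2 were measured, and MPEG1, csf1ra, P2RY12 and ptprc had 0 reads in all 15 cells. The summed level of that list was 0 to 1078 CPM in positive cells and 0 to 5705 CPM in negative cells, where CTSB, a cathepsin that many cells have, gave 4963 CPM in lesion cell 12. Of the pericyte genes TAGLN ENSDARG00000045408 was detected in lesion cells 7, 10 and 16, the 3 positive cells with the fewest genes, at 625, 547 and 1103 CPM, while PDGFRB had 0 reads. Fibroblast genes were detected in negative cells only, in up to 3 of 19 genes, and the collagen genes col1a1a, COL1A1 and COL1A2 had 0 reads. The part of these levels in the lists above was not tested.

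The sham cells gave a second look at the same division. Of the 757 genes at least 4-fold higher in positive lesion cells, 69.4% were also higher in the 5 positive sham cells than in the negative sham cell 30, 13.7% were lower and the rest were equal. Over all 5040 measured genes these shares were 54.1% and 22.2%. Of the 1573 genes higher in negative lesion cells 16.3% were higher in sham cell 30, against 22.2% over all measured genes. The positive sham cells were higher for 46.9% of them, against 54.1%, and the other 579 were equal. Any difference counted here, without a fold limit, and the summed reads of 5 cells were set against 1 cell. That cell had LFNG at 5238 CPM, SOX2 at 3293 CPM and GPR17 at 680.1 CPM, and 0 reads of hapln1a, dlb, nhlh2, FOXJ1 and ISL1. A single cell gives no spread for the negative cells of an intact cord.

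Most genes named in the positive lesion cells were also detected in positive sham cells. GRIA2 ENSDARG00000052765 was detected in 5 of 5 positive sham cells, up to 3883 CPM, as were SEMA5A, from 1734 to 4909 CPM, and CXCL12, from 684 to 2921 CPM. isg15 and ESD were detected in 0 of 5 positive sham cells, against 5 and 6 of 7 positive lesion cells. ESD had 541 CPM in sham cell 30, opposite to its direction in the lesion, and isg15 was also detected in 11 of the 17 plp1b-high lesion cells. The remaining 10 of the 12 genes named there were each detected in 3 to 5 of the 5 positive sham cells, or in 2 to 4 of 4 without sham cell 32, which carried genes of sham cell 33. Detection in at least 3 of the 5 positive sham cells held for 23.8% of all 5040 measured genes. It held for 30.1% of the 757 genes at least 4-fold higher in positive lesion cells. The 12 named genes had been chosen for detection in 60% of positive lesion cells. Both groups are single pools of cords, so these counts carry no test.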

How the data were processed

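Single cells were sorted from 9 pooled cords per group, and each sample is 1 cell. The authors deposited 1 table of raw counts per gene without normalization. Per the submitters' processing notes, bcl2fastq 2.19.1, GSNAP 2018-05-30 and featureCounts 1.6.2 were used on GRCz10; per the file headers, featureCounts 1.6.3 counted exons of Ensembl 87 genes without strand (-s 0) at a mapping quality of at least 1 (-Q 1), so antisense partners cannot be told apart. The library kit is not given in the sources used here, and PCR copies could not be removed. Gene lengths in the table, per the file headers an other unit deposited beside the counts, were not used, so levels compare cells and not genes.

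The table held 32266 genes and 92 spike-ins, which had 29 reads in these cells and were left out. Of the gene IDs 26433 had a symbol. Reads were summed over the cells of a side, scaled to CPM and compared as a log2 ratio with 1 CPM added. A gene counted as detected at 5 reads. Intervals are exact 95% Poisson intervals, and a side at 0 was set at 3 reads. A share of 0 of 7 or 0 of 8 cells allows up to 41.0% or 36.9% (Clopper-Pearson). Genes were named where at least 20 CPM and detection in 60% of cells of the higher side were met, and where per-cell means, and sums without the highest cell, pointed the same way; genes among these that are not reported here were not replaced; the 4 most abundant measured genes of each list and the markers were added. The members, the 37 lists and their genes were chosen with earlier results of these data known, and 75 listed symbols found no match. The calculation of log2 ratios was tested on simulated counts that had counting error but no other spread between cells of a side. Alternatives covered scaling (edgeR 4.0.16, DESeq2 1.42.0 factors), the added CPM, filters, depth thinned to 301650 reads, plate rows, thresholds and single cells. The omission of lesion cell 12, of cells under 2500 genes and of the GPR17 cells, and 24 further genes, were chosen after seeing the data. Doublets were not called. Python 3.11.15, pandas 2.3.3, numpy 2.4.6, scipy 1.17.1, matplotlib 3.10.9 and R 4.3.3 were used.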

Additional observations from a re-analysis of the deposited data

Results flagged for a closer look

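For 252 sets of values the highest and lowest cells were compared with their neighbours on a log2 scale, log2(CPM + 1) for genes. Each set was 1 gene on 1 side, or gene reads, genes with a read, or the mitochondrial or ribosomal share on 1 side. In 57 sets a cell's gap to the nearest other cell exceeded Dixon's limit. Chance flags about 1 in 20 sets. A gene with reads in only 1 cell of a side meets this limit by construction, also where a single read is all there is. A gene missing from 1 cell only can meet it too, but need not. No explanation was tested.

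Among the positive cells, lesion cell 11 was the only one with reads of MIB1 (502 CPM), HES1 (332), KCNMA1 (21.2), sdc4 (756), MCM2 (1148), PELI1 (21.2) and MANF (10.6). It also stood apart at 198 CPM of insig1, where the next cell had a single read. Lesion cell 2 was the only one with BUB3 (90.8 CPM), PPP2CA (4.54), RND3 (6.81) and CDKN1B (2.27). It also had 324 CPM of mbpa and 1059.7 CPM of cd59a, where the next values were 1.98 and 12.3. This cell had a read of 94.0% of the genes abundant in sham cell 20. Lesion cell 6 was the only one with her15.1 (461 CPM) and stood apart for SOX4 at 317, KCNC1 at 255 and BTG1 at 21.4 CPM, each next to 1.98. Lesion cell 5 had 1.98 CPM, a single read, of each of ROBO3, GFAP and INSM1 where the others had 0, and 11.9 CPM of RPL3 where the next had 704. Lesion cell 10 was the only one with CFAP20 (446 CPM), and was low for SPOCK3 at 2.45 next to 402 CPM and for HSPA8 at 1044 next to 4019.5 CPM. Lesion cell 7 was at 0 for QPCT, DESI1 and SEMA5A, where the next cells had 195, 98.9 and 1838 CPM, and at 2.67 CPM of b2ml next to 169. Lesion cell 16 was at 0 for ESD, next to 77.7 CPM, at 3.91 CPM for tubb2b, next to 356, and had the single read of ISL1 (1.96 CPM).

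Among the negative cells, lesion cell 14 was the only one with CXCL12 (338 CPM), RPA2 (39.8), gpr137bb (2.49) and ESD (2.49), and had 37.3 CPM of ifi27.1 next to 4.36. Lesion cell 4 was the only one with SEMA5A (881 CPM), GLRA2 (86.5), AIF1L (16.4) and GRIA1 (11.7), had 196 CPM of SPOCK3 next to 6.54, and was low for VIM at 0 next to 278 CPM and for JUN at 4.67 next to 380.5 CPM. Lesion cell 12, which shared content with lesion cell 13, was low for actb2 at 2147, actb1 at 375, tmsb4x at 290.2, MT-CYB at 517 and PPP2CA at 13.1 CPM, where the next cells had 7727, 2381, 1428, 2375 and 147. Lesion cell 15 was at 0 for sdc4 and insig1, next to 227 and 63.3 CPM, and had the only read of TAGLN (2.41 CPM). Lesion cell 8 was the only one with LHFPL3 (321 CPM) and was at 0 for mhc1zba, next to 638 CPM. Lesion cell 9 was at 0 for hapln1a, next to 388 CPM, lesion cell 3 at 0 for ANGPTL4, next to 251 CPM, and lesion cell 13 at 0 for ATF3, next to 381 CPM.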

How the results depend on the processing

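Of 969 medians recomputed for 27 lists 39, from 14 lists, had another sign than reported; 37 of these belonged to 12 lists with a reported median under 4-fold. No paired analysis was possible because replicate numbers only name cells, and no value carries a test. Limits of 1 or 20 reads for the dividing genes and of 5000 CPM for plp1b gave the same cells. DESeq2 factors moved every ratio by 0.15 and TMM factors by 0.08. The filter was applied again wherever the set of cells changed and after thinning, so counts and list medians there rest on other genes. The cause of the changes below was not tested. Counts past 4-fold were 2459 and 4656 (positive and negative cells) without a filter, 202 and 388 in plate rows F to H (2 and 3 cells), 902 for negative cells of rows B to E, and 2509 for negative cells without the highest cell of each side. Genes without overlap numbered 18 and 44 of 3853 (0.467% and 1.14%) for rows B to E. For rows F to H they numbered 172 and 393 of 1125 (15.3% and 34.9%). They were 8 and 47 of 3841 after thinning, and 15 and 33 of 4373 without the GPR17 cells. Without the ISL1 and MNX1 cells they were 10 and 60 of 4286. Of 5040 genes 3 and 2 had no overlap with olig1 alone and 9 and 1 with GRIN1 alone. For positive cells they were 43 of 4892 without cells under 2500 genes and 0 of 5190 with plp1b under 20000 CPM. Leaving out each cell in turn gave 5 to 13 and 12 to 26, with 8 to 13 genes higher in positive cells without lesion cell 5, 6, 7 or 16 and 19 to 26 higher in negative cells without lesion cell 3, 9 or 11, and median ratios of -1.05 to -0.41 for ribosomal, -2.57 to -0.77 for immediate early, -0.41 to 0.12 for mitochondrial, -4.42 to -0.71 for myelinating oligodendrocyte and 0.016 to 1.89 for channel genes. With 0.1 CPM added the medians were -9.22 for cholesterol synthesis, -9.28 for cilia, -10.52 for motor neuron and -8.85 for neurogenic genes, and with 5 CPM -3.74 for cilia and -4.19 for neurogenic genes. Without a filter the cilia median was -4.77. The ribosomal median was -0.44 with DESeq2 factors, -1.15 with GRIN1 alone, -0.42 with olig1 alone, -0.34 for rows B to E, -1.30 for rows F to H, -1.13 without cells under 2500 genes and -0.93 without the highest cells; the mitochondrial one was -0.59 with olig1 alone and -0.56 without cells under 2500 genes. In rows B to E and rows F to H 3853 and 1125 genes passed the filter, which still asked for detection in 3 cells. The list medians of these rows therefore rest on fewer genes than those reported. Rows B to E gave 0.28 for hes and her genes and -1.18 for neurogenic genes. Rows F to H gave -3.00 for OPC, -9.97 for committed oligodendrocyte, -9.95 for myelinating, -9.19 for cilia, -5.06 for Notch receptor, -1.41 for hes and her, -8.97 for neurogenic, -9.15 for motor neuron, -5.01 for channel, -3.38 for matrix, -7.22 for guidance, 2.97 for growth factor, -4.54 for Sox, -0.33 for cytoskeleton, -10.01 for immediate early, -3.37 for heat shock, -7.22 for cholesterol synthesis and -9.01 for apoptosis genes. With plp1b under 20000 CPM, which adds lesion cell 23 to the positive cells, the medians were 2.30 for myelinating and 1.41 for Schwann cell genes. Without the ISL1 and MNX1 cells they were -2.19 for neurogenic, 3.53 for neuron, 1.85 for channel and 1.01 for cytoskeleton genes. Without the highest cells they were -4.17 for myelinating, -2.58 for Sox, -3.67 for immediate early and -3.08 for Schwann cell genes.

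Of 143 genes 48 had another sign under at least 1 setting, 38 of them with a reported ratio under 4-fold. The other 10 follow. plk1 was at -1.38 without lesion cell 2 (range to 3.82) and -5.25 for rows F to H, GLRA2 at -0.17 without lesion cell 6 (to 6.06), and ACAT2 at -0.27 without lesion cell 16 (to 3.75), -0.51 in rows B to E and -2.71 with olig1 alone. In rows F to H cspg5a was at -0.66. With plp1b under 20000 CPM ATF3 was at 0.22 and mbpa at 2.89. ifi27.1 was at -1.17 with GRIN1 alone, TAGLN at -0.40 without cells under 2500 genes, and INSM1 and ISL1 at 0.42 without the ISL1 and MNX1 cells.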

Other observations

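Genes of cell division were carried by 2 positive cells. Lesion cell 2 had 31 of 38 listed mitosis genes detected, among them TOP2A at 1225 CPM, CDK1 at 1205 CPM and mki67 at 363 CPM, and no other of the 15 cells had more than 3 of the list. TOP2A, CDK1 and mki67 had 0 reads in the 8 negative cells. Lesion cells 2 and 11 had 17 and 22 of 45 listed DNA replication genes, and the other 13 cells had 0 to 5. PCNA, the sliding clamp of DNA polymerase, stood at 3819 and 2445 CPM in these cells, at 0 in the other positive cells, and among the negative cells it was detected in lesion cell 14 only. Among the 5 positive sham cells, cells 31, 32 and 34 had 10, 20 and 18 replication genes. The mitosis list had only 2 measured genes because a gene needed detection in 3 cells, so the list medians of the report leave these values out.

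Of the channel genes, cacnb4b, a calcium channel subunit, was detected in 4 of 7 positive and 4 of 8 negative cells, at 486 and 190 CPM of the summed reads.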
